A study of Mus musculus with 3 samples.

Results

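Matrix metalloproteinases (Mmp), the Adamts proteases and the tissue inhibitors of metalloproteinases (Timp) were followed in mouse embryo fibroblasts (MEFs), the connective tissue cells that grow out of dissociated embryos. Members were all genes of the count table whose symbol is Mmp, Adamts or Timp followed by a number, with a or b allowed after an Mmp number. This gave 46 of 21782 genes, made up of 23 Mmp, 19 Adamts and 4 Timp genes. Related names outside this pattern, such as the Adam and Adamts-like genes, were treated as pathway genes. PolyA-selected RNA was sequenced from 3 clones of WT MEFs, 1 library a clone, isolated from E12.5 embryos and grown unsynchronised in medium with 20% serum. All samples were of 1 condition, so the only differences that could be tested were those between clones. The labels do not say whether the clones came from separate embryos, and the p-values measure the spread between these 3 libraries only. Where 3 values are given for a gene, they follow the order of clones 1, 2 and 3.

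Extracellular matrix is cut by zinc-dependent proteases that cells secrete or carry on their surface. Mmp proteins are made as inactive precursors, held shut by a cysteine in the propeptide until furin, plasmin or another Mmp removes it, and Timp proteins plug the active site. Adamts proteases have thrombospondin repeats that hold them in the matrix, and their substrates include proteoglycans, procollagens and von Willebrand factor. Fibroblasts are a main source of all 3 families in connective tissue.

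Total counts per library were between 22594316 and 25261357, a 1.12-fold range, so that 3 counts, the upper limit that a count of 0 allows, corresponded to 0.119 to 0.133 counts per 1000000 counts (CPM). The label of fibroblast was checked against marker genes. All 9 fibroblast markers were expressed, meaning at least 1 CPM in every clone, and their summed level was between 43152 and 54737 CPM. Most of this sum came from the collagens Col1a1 and Col1a2, while Lum was near the threshold, at 3.38, 1.15 and 1.54 CPM. All 13 macrophage markers were also expressed, and each was highest in clone 2, where their sum was 1992 CPM against 420 CPM in clone 1 and 352 CPM in clone 3. None of 8 markers of other leukocytes exceeded 3 counts in any clone, and 5 of them were at 0 throughout. Of 6 cartilage markers, 3 were expressed, and their sums were 794, 548 and 775 CPM, most of it from the cartilage collagen Col2a1. Of 6 epithelial and 4 endothelial markers, 1 of each list was expressed. Clone 2 therefore stood apart in these markers, and results that rest on it are given with and without it.

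Of the 46 members, 28 (60.9%) were expressed, against 52.2% of all genes in the table. They were 13 Mmp, 12 Adamts and 3 Timp genes, and their median of 45.1 CPM, against 25.7 CPM for all expressed genes, gave the tests between clones more counts per gene to work with. A further 8 members had more than 3 counts in some clone without reaching 1 CPM in all of them, 6 had between 1 and 3 counts in their highest clone, and 4 (Mmp1a, Mmp7, Mmp20 and Mmp21) had no count in any clone. Together, the members took 0.706% of all counts in clone 1 and 0.601% in each of the other clones. Levels of different genes are compared below as CPM per kb of the annotated transcript with the longest coding sequence.

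**Figure D1:**
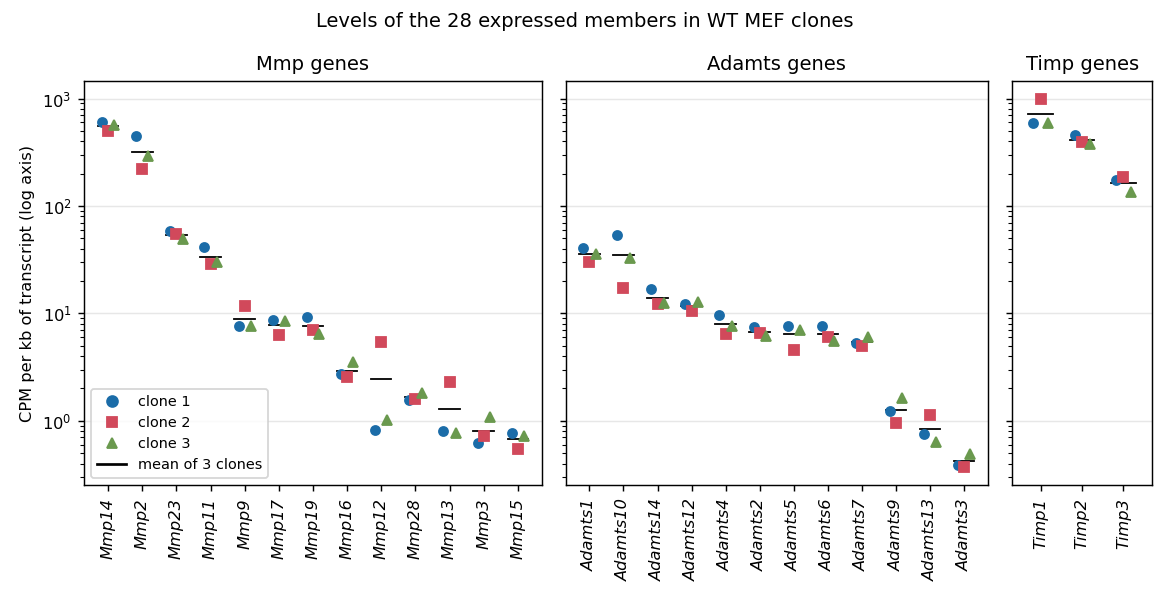
CPM per kb of transcript (log axis) of the 28 expressed members in each clone, with Mmp, Adamts and Timp genes in separate panels ordered by their mean; points are clones and black lines their means. Mmp14, Mmp2 and the 3 Timp genes sit above 100 CPM per kb on average, and Mmp12 and Mmp13 are the Mmp genes in which clone 2 lies farthest above the other clones.

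Transcripts of the membrane-type Mmp genes were dominated by Mmp14, which encodes the surface collagenase MT1-MMP, the main activator of the MMP2 precursor. Mmp14 (chr14:54431612-54445364, plus strand of GRCm38) had 38954, 29230 and 36821 counts in clones 1, 2 and 3, or 1441 ± 137 CPM (SD, n = 3). It took 56.2% ± 4.55 (SD, n = 3) of the Mmp counts per kb. Mmp17, which codes for a membrane-type enzyme held by a lipid anchor, had 1391, 909 and 1378 counts in clones 1, 2 and 3. Mmp16, a transmembrane relative of Mmp14, had 338, 289 and 443 counts. Both were thus well below Mmp14 in every clone, at 7.83 and 2.92 CPM per kb against 555 CPM per kb. Mmp15 had 99, 63 and 94 counts, while Mmp25 had at most 8 counts and Mmp24 at most 2. Of the 6 membrane-type genes, 4 were expressed.

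The gelatinases, which cut denatured collagen and basement membrane, were both expressed, but at very different levels. Mmp2 (chr8:92827291-92853420, plus strand) had 34274, 15324 and 22535 counts, which is 984 ± 359 CPM (SD, n = 3). Clone 1 was 2.03-fold above clone 2, and clone 3 was 1.31-fold above clone 2. Mmp2 made up 37.8% of Mmp counts per kb in clone 1, 26.2% in clone 2 and 30.1% in clone 3. Mmp9 (chr2:164940780-164955850, plus strand), which is abundant in macrophages and neutrophils, had 600, 830 and 610 counts in clones 1, 2 and 3. It was highest in clone 2, 1.52-fold above the mean of the other clones, and its 8.94 ± 2.30 CPM per kb (SD, n = 3) compared with 320 ± 117 CPM per kb for Mmp2. Of all Mmp counts per kb, Mmp14 and Mmp2 thus took the greater part in every clone.

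The classical secreted enzymes were low or absent. Among the collagenases, which open the triple helix of fibrillar collagen, Mmp13 was the only one with more than 1 count in any clone. Mmp13 had 53, 139 and 52 counts, so that clone 2 stood 2.94-fold above the mean of the other clones, which differed by 1.04-fold. Mmp8, the neutrophil collagenase, had 0, 1 and 0 counts, Mmp1b had 0, 0 and 1, and Mmp1a, which GENCODE M21 lists as a polymorphic pseudogene, had none. The stromelysins Mmp3 and Mmp10, broad proteases that also activate other Mmp precursors, had 28, 29 and 49 counts and 27, 32 and 20 counts in clones 1, 2 and 3. When 2 mismatches are allowed, 17.7% of the 86-base stretches of Mmp3 also occur in Mmp10 or Gm15242. Of the stretches of Mmp10, 16.4% also occur in Mmp3. Reads may thus have been exchanged between these genes or left uncounted.

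Mmp11, or stromelysin-3, is activated inside the cell by furin and was far higher than the stromelysins whose name it shares. It had 2366, 1494 and 1723 counts, or 33.5 ± 7.08 CPM per kb (SD, n = 3) against 0.806 ± 0.239 CPM per kb for Mmp3. Mmp12, the macrophage elastase, had 74, 443 and 93 counts. Its level in clone 2 was 5.90-fold above the mean of clones 1 and 3, which differed from each other by 1.24-fold. Mmp7, or matrilysin, an epithelial enzyme, had no count.

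Among the remaining Mmp genes, Mmp23, whose product is released from the membrane by furin-like cleavage, was the third highest of the family per kb. It had 2072, 1773 and 1801 counts in clones 1, 2 and 3, a spread of 1.17-fold. Mmp19, an enzyme of basement membrane, had 786, 541 and 553 counts. Of the 86-base stretches of Mmp19, 23.6% also occur in other genes, including Tmem198b on the opposite strand, which itself had between 1507 and 1535 counts, so the count of Mmp19 is uncertain. Mmp28, or epilysin, had 95, 88 and 112 counts and varied by 1.16-fold between clones. Mmp27 had 2, 3 and 1 counts, and Mmp20, the enamel protease, and Mmp21 had none.

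A group of 10 Mmp genes lies side by side on chromosome 9 (chr9:7272514-7699585), within 427 kb, and holds all the collagenases, Mmp3, Mmp10, Mmp12, Mmp7, Mmp20 and Mmp27. In this group, 3 genes were expressed (Mmp3, Mmp12 and Mmp13) and 6 had at most 3 counts in every clone, whereas 10 of the 13 Mmp genes elsewhere were expressed. The whole group held 184, 647 and 216 counts, which is 0.227%, 1.26% and 0.326% of all Mmp counts. Most of the counts of clone 2 came from Mmp12.

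Promoter sequences from RefSeq (GRCm38.p6) were used for 32 of the 46 members, with 35 start sites in all, and the 250 bases before each start were examined. The 14 members left out all lie outside the chromosome 9 group, and Mmp2, Mmp9, Adamts4, Adamts5 and Adamts10 are among them. These bases are shown because the chromosome 9 genes share letters there that most of the 22 members examined elsewhere lack. The motif TGANTCA, where N is any base, covers the core of the site bound by AP-1 dimers of Fos and Jun proteins. It was searched as a pattern that reads the same on both strands. The motif was found in 8 of the 10 chromosome 9 genes, or 8 of their 12 promoters. This compares with 0 of 22 members elsewhere and 6.75% of all 32851 promoters. The TATA box letters TATAAA on the gene's own strand were found in 7 of these 10 genes, or 7 of the 12 promoters, at varying distances from the start. They were found in 2 of the 22 members elsewhere (Adamts1 and Mmp21) and in 7.59% of all promoters. On either strand, 12.4% of all promoters held TATAAA. The chromosome 9 promoters had a median of 1 CpG dinucleotide and at most 7, the 22 members elsewhere had a median of 15, and all promoters had a median of 6. Mmp8 and Mmp27 were the chromosome 9 genes without TGANTCA. A match describes the letters only and does not show that a factor was bound. Below are the 120 bases before the start of 4 genes of the group, all of them on the plus strand, with TGANTCA and TATAAA in capitals.
Mmp3 (chr9:7445702-7445821): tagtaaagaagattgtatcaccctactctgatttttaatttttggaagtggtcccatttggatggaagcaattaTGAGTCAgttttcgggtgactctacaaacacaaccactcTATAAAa
Mmp10 (chr9:7502222-7502341): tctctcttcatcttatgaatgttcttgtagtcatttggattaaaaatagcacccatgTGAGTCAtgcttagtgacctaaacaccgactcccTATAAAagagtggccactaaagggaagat
Mmp13 (chr9:7272394-7272513): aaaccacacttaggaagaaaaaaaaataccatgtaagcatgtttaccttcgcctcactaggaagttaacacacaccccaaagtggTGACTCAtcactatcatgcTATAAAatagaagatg
Mmp1a (chr9:7464021-7464140): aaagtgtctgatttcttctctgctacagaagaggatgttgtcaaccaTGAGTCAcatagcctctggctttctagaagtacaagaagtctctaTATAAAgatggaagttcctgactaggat
TGANTCA began 46 bases before the start of Mmp3, 63 before that of Mmp10, 35 before that of Mmp13 and 73 before that of Mmp1a. TATAAA began 7, 29, 16 and 28 bases before the same starts. In Mmp1b and Mmp20 it began 49 and 58 bases before the start. Mmp12 has 2 starts in RefSeq, and the one at which TGANTCA was found, 44 bases before it, had no TATAAA. The same 120 bases are given for the member of highest mean CPM in each family, Mmp14, Timp2 and Adamts1. Neither Mmp14 nor any Timp gene held TGANTCA or TATAAA.
Mmp14 (chr14:54431478-54431597, plus strand): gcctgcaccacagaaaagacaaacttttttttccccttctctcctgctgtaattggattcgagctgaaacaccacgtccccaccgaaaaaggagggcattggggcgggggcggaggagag
Timp2 (chr11:118355412-118355531, minus strand): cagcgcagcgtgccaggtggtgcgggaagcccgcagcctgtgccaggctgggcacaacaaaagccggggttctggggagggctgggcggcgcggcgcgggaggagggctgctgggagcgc
Adamts1 (chr16:85803114-85803233, minus strand): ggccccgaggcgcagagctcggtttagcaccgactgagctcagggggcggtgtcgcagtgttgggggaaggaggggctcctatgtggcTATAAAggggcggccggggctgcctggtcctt
Over all genes, the median was 16 CpG for expressed and 3 CpG for other genes, and among members it was 14 and 2. Among members outside the chromosome 9 group there was no such difference, with a median of 15 CpG for expressed and 15 CpG for other members. The chromosome 9 genes that share these letters did not share a level. Mmp3, Mmp10 and Mmp13 gave counts in every clone while Mmp1a, Mmp7 and Mmp20 gave none, and CpG-rich promoters elsewhere also belonged to genes near 0, such as Mmp24 with 33 CpG and at most 2 counts.

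**Figure D2:**
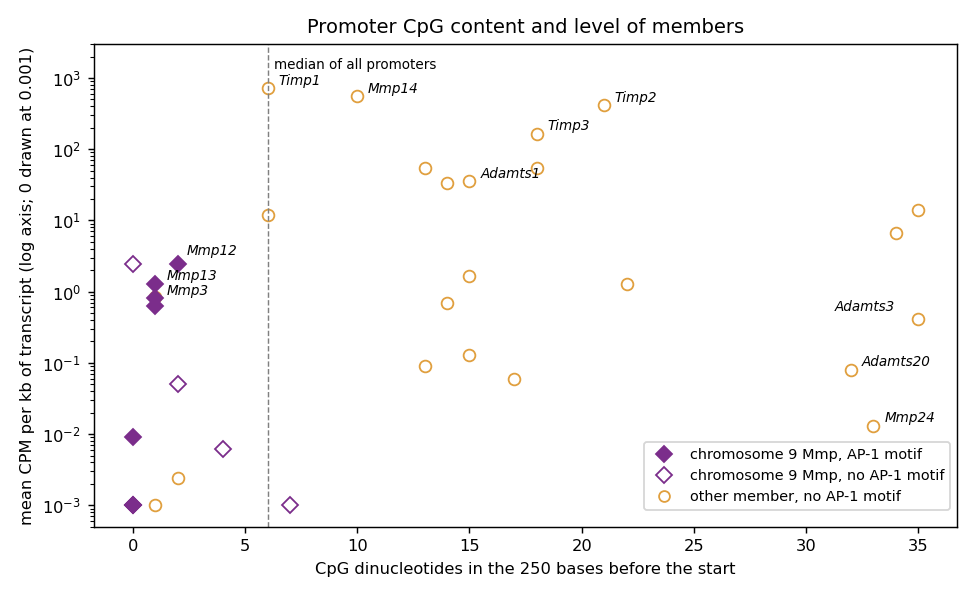
Number of CpG dinucleotides in the 250 bases before each of 35 start sites of 32 members, against the gene's mean CPM per kb of transcript (log axis, with 0 drawn at 0.001); diamonds are the chromosome 9 Mmp genes, filled symbols hold TGANTCA, and the dashed line is the median of all promoters, 6. Every filled symbol is a chromosome 9 gene with at most 2 CpG, and genes with 10 or more CpG range from Mmp14 and Timp2 down to Mmp24.

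The Adamts family was led by Adamts1 and Adamts10. Adamts1 (chr16:85793827-85803113, minus strand), a protease of the proteoglycans versican and aggrecan, had 4908, 3305 and 4422 counts, which is 173 ± 25.5 CPM (SD, n = 3). It took 27.3% ± 2.54 (SD, n = 3) of Adamts counts per kb. Adamts10 (chr17:33524204-33553782, plus strand), which binds fibrillin-1 in microfibrils, had 5432, 1557 and 3357 counts. The clones were thus well apart from each other, with clone 1 at 3.17-fold and clone 3 at 1.92-fold the level of clone 2. Adamts10 took 32.9% of Adamts counts per kb in clone 1, more than Adamts1, but 16.9% in clone 2 and 25.4% in clone 3, less than Adamts1. This order rests on the length chosen, since per kb of all exons Adamts10 took 22%, 10.5% and 16.4% and was below Adamts1 in every clone (30.9%, 34.6% and 33.6%).

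Of the 7 proteases grouped as cutting aggregating proteoglycans, 4 were expressed. Besides Adamts1 these were the aggrecanases Adamts4 and Adamts5 and the versican protease Adamts9. Adamts5 had 2061, 1104 and 1911 counts, and Adamts4 had 1060, 640 and 842 counts. Both were lowest in clone 2, at 0.617 and 0.747 times the mean of the other clones. Adamts9 had 243, 172 and 329 counts. Adamts20 had 11, 12 and 12 counts, Adamts15 had 7, 2 and 1, and Adamts8 had 6, 0 and 1. Adamts1 and Adamts5 are neighbours on chromosome 16, 53.1 kb apart on the same strand, and Adamts15 and Adamts8 are neighbours on chromosome 9, 20.1 kb apart on opposite strands. The first pair was well expressed in all clones and the second had fewer than 8 counts in each.

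All 3 procollagen N-proteinases, which trim the amino-terminal propeptide of fibrillar procollagens, were expressed. Adamts14 had 1541, 1009 and 1150 counts in clones 1, 2 and 3, Adamts2 had 1340, 1066 and 1132, and Adamts3, which also processes VEGF-C, had 38, 33 and 49. Per kb, Adamts14 was the highest at 13.9 ± 2.68 CPM, compared with 6.70 ± 0.649 for Adamts2 and 0.418 ± 0.0656 for Adamts3 (SD, n = 3). The proteases of cartilage oligomeric matrix protein, Adamts12 and Adamts7, had 2609, 2044 and 2753 counts and 713, 608 and 816 counts. Both varied by 1.20-fold over the clones, and both were highest in clone 3. Adamts13, the plasma protease of von Willebrand factor, had 84, 116 and 73 counts and was highest in clone 2.

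Adamts6, a close relative of Adamts10, had 1231, 879 and 907 counts in clones 1, 2 and 3. Its spread of 1.38-fold was narrower than that of Adamts10. The other members of this less studied group were near the floor. Adamts18 had 19, 15 and 18 counts, Adamts17 had 20, 8 and 12, Adamts16 had 17, 11 and 4, and Adamts19 had a single count in clone 2.

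Of the inhibitors, 3 of 4 were among the most abundant members. Timp2 (chr11:118301069-118355740, minus strand), which inhibits Mmp proteins and also bridges MMP14 and the MMP2 precursor during activation, had 42406, 32866 and 35527 counts, or 1524 ± 161 CPM (SD, n = 3). Timp3 (chr10:86300372-86349506, plus strand), the inhibitor that stays bound to the matrix and also blocks Adam and Adamts proteases, had 20639, 19674 and 16169 counts. The gene lies inside Syn3 on the opposite strand, and 35.6% of its stretches are also annotated for that gene. Syn3 itself had at most 4 counts, which does not show how reads of the shared stretches were counted. The count of Timp3 is therefore uncertain. Timp1 (chrX:20870166-20874735, plus strand), a secreted inhibitor that responds to growth factors, had 12900, 19562 and 13118 counts. Clone 2 was 1.67-fold above the others, whose CPM agreed to within rounding (519 CPM in each). Timp1 lies in an intron of Syn1, which had 67 to 111 counts. Timp4, the inhibitor of heart and adipose tissue, had 1, 0 and 0 counts.

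Because of its short transcript of 883 nt, Timp1 was the highest member per kb, at 720 ± 228 CPM per kb (SD, n = 3), and ranked 60 of 21714 genes with a length. Mmp14 followed at 555 ± 52.6 CPM per kb, Timp2 at 411 ± 43.3, Mmp2 at 320 ± 117 and Timp3 at 165 ± 26.2 (SD, n = 3). Among the 28 expressed members taken in order of their mean, 9 of 27 neighbouring pairs stood in that order in all 3 clones. The pair Timp1 and Mmp14 was not one of them, since Mmp14 was higher in clone 1, nor were the pairs formed by Adamts1, Adamts10 and Mmp11. The order of Mmp14, Timp2 and Mmp2 also rests on the length chosen. All exons of Mmp14 together cover 5960 bp against 2596 nt for the transcript used, and per kb of all exons Mmp14 had 242 CPM, below Mmp2 with 292 and Timp2 with 391. Adamts10 had 17 CPM per kb of all exons in place of 34.7, and Adamts1 had 32.6 in place of 35.4.

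Summed over the families, Timp counts per kb exceeded Mmp counts per kb by 1.03-fold, 1.85-fold and 1.15-fold in clones 1, 2 and 3, and the mean ratio was 1.34 ± 0.443 (SD, n = 3). In clone 2, Timp1 was highest and Mmp2 lowest, and the ratio without this clone was 1.09. Per kb of all exons the ratio was 2.02. For the 3 genes that act together in activation of MMP2, Mmp14 exceeded Mmp2 per kb by 1.35-fold, 2.26-fold and 1.94-fold in clones 1, 2 and 3, but with all exons the values were 0.643, 1.08 and 0.924. Timp2 was 0.762, 0.787 and 0.675 times Mmp14 per kb, a narrow range over clones, and 1.67, 1.72 and 1.48 times Mmp14 with all exons. These are ratios of RNA and not of protein.

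Whether clones differed was asked with Pearson's chi-square, comparing each gene's 3 counts with those expected from library size, and p-values were adjusted over all 12608 genes that had a mean of at least 10 counts. This test compares libraries, not conditions. It sets their spread against counting error only, taking reads as independent, so that it calls most genes with many counts. Of 33 members tested, 25 were called (75.8%), against 62.2% of all genes tested. From the lowest to the highest clone, the median fold was 1.43 for members (1.44 for Mmp, 1.38 for Adamts and 1.36 for Timp genes) and 1.25 for all genes. A fold of at least 2 was reached by 5 called members, Mmp12, Mmp13, Mmp2, Adamts10 and Adamts16, that is 15.2% against 9.26% of all genes. Of these, Adamts16 was not expressed and had only 17, 11 and 4 counts. Its call was lost when every clone had to reach 10 counts, and also without clone 1 or without clone 3. Of the 8 members without a call, Mmp28 and Mmp15 were expressed with 63 to 112 counts, and Mmp3, Mmp10, Adamts3, Adamts17, Adamts18 and Adamts20 had 49 counts or fewer.

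Most called members had their maximum in clone 1. This was the case for 15 of the 33 tested (45.5%), against 23.5% of all genes tested, and the 15 were 6 Mmp genes (Mmp14, Mmp2, Mmp23, Mmp11, Mmp17 and Mmp19), 8 Adamts genes (Adamts1, Adamts2, Adamts4, Adamts5, Adamts6, Adamts10, Adamts14 and Adamts16) and Timp2. Clone 2 was highest for 6 members (18.2%, against 23.6% of all genes), namely Mmp9, Mmp12, Mmp13, Adamts13, Timp1 and Timp3. Clone 3 was highest for Mmp16, Adamts7, Adamts9 and Adamts12, or 12.1% against 15.1%. Clone 2 was the lowest for 13 members (39.4%, against 21.1%), 8 Adamts and 5 Mmp genes but no Timp gene, and 9 members were highest in clone 1 and lowest in clone 2 (27.3%, against 15.7%). In the median, members in clone 2 were at 0.884 times the mean of the other clones, and all genes at 0.997 times. Without clone 2, the chi-square test called 19 members, against 45.1% of all genes, and the calls of Mmp9, Mmp12, Mmp13, Mmp17, Adamts12, Adamts13 and Timp1 were lost while Mmp3 was added. Without clone 1, it called 19 of 32 members and 32.1% of all genes, and the calls of Mmp11, Mmp19, Adamts2, Adamts6, Adamts14 and Adamts16 were lost.

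**Figure D3:**
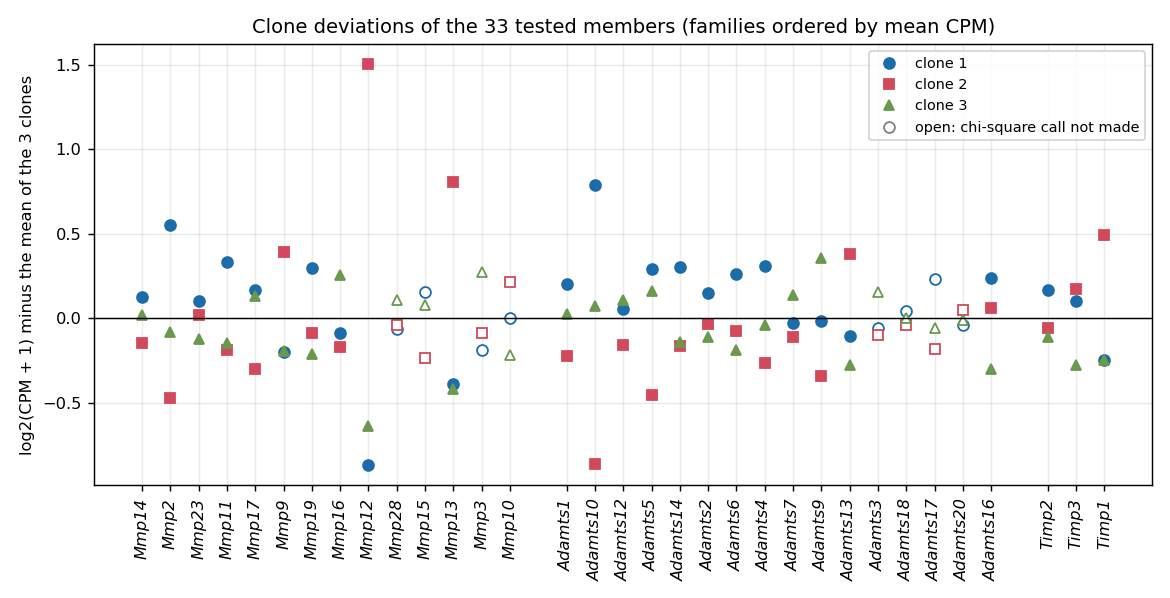
Deviation of each clone from the mean of the 3 clones, in log2(CPM + 1), for the 33 tested members; filled symbols are members called as differing between clones by the chi-square test. Clone 2 is far above the others for Mmp12 and Mmp13 and below them for Adamts10 and Mmp2, and clone 1 lies highest for most called Adamts genes.

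A goodness-of-fit test of edgeR asked which members spread more between clones than genes of the same level do. It called 3 of 33 members (9.09%), against 2.13% of all genes tested. They were Mmp12 (adjusted p = 3.34e-07 in edgeR), Adamts10 (adjusted p = 1.89e-05 in edgeR) and Mmp2 (adjusted p = 0.0333 in edgeR). Mmp13 (adjusted p = 0.344) and Timp1 (adjusted p = 0.164) did not pass in this edgeR test. Mmp12 was high in clone 2, whereas Adamts10 and Mmp2 were high in clone 1, intermediate in clone 3 and low in clone 2. Without clone 2, edgeR called none of the 33 members, and it called 0.143% of all genes. At an unadjusted p under 0.05, 3 members (Adamts10, Adamts16 and Mmp2) of 33 passed without clone 2 in edgeR, or 9.09%, against 5.66% of all genes. Without clone 1 or without clone 3, Mmp12 and Adamts10 stayed past the threshold and Mmp2 did not.

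Markers of another cell type also differed between clones. Each of the 13 macrophage markers, among them Ptprc, Csf1r, Cd68, Lyz2 and the C1q genes, was highest in clone 2, at 4.04 to 7.02 times the mean of the other clones with a median of 5.15, and none was at 0 in any clone. Csf1r, the receptor for macrophage colony-stimulating factor, had 1165, 5001 and 1209 counts in clones 1, 2 and 3. Mmp12 at 5.90 times lay within the range of these markers, while Mmp13 at 2.94, Timp1 at 1.67, Adamts13 at 1.64 and Mmp9 at 1.52 times lay below it. In bulk RNA, more cells of a type and more RNA per cell cannot be told apart. Fibroblast markers in clone 2 were at 0.468 to 1.91 times the other clones, with a median of 0.895, and 7 of 9 were highest in clone 1. All 6 proliferation markers were highest in clone 2, with sums of 368, 723 and 609 CPM in clones 1, 2 and 3, and all 3 arrest markers (Cdkn1a, Cdkn2a and Cdkn2b) were highest in clone 1, with sums of 587, 411 and 464 CPM. Cartilage markers as a sum, most of it from Col2a1, were at 0.698 times the other clones in clone 2. By gene, the 4 tested cartilage markers were at 0.667 to 1.28 times, with a median of 1.04. Col2a1 and Col9a1 were highest in clone 1, and Acan and Sox9 in clone 2. Col9a1, with 111, 54 and 8 counts, passed the edgeR goodness-of-fit test. The part of these lists in the levels of Mmp12, Mmp13, Mmp2 and Adamts10 was not tested.

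**Figure D4:**
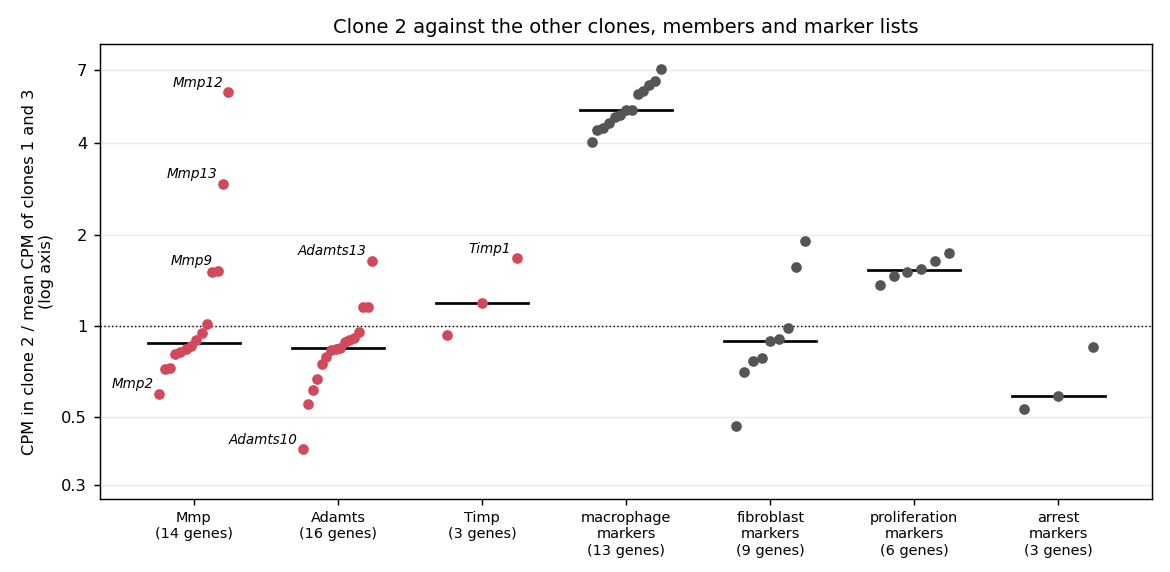
CPM in clone 2 divided by the mean CPM of clones 1 and 3 (log axis) for the tested Mmp, Adamts and Timp genes and for 4 marker lists; each point is a gene and black lines are medians. Mmp12 at 5.90 lies among the macrophage markers (4.04 to 7.02), Mmp13 at 2.94 lies below them, and most Mmp and Adamts genes lie below 1.

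Genes that act with the members were read from lists of pathway genes. Of 13 activators and surface regulators, which include the furin-like convertases, the plasminogen activators and the Mmp inhibitor Reck, 12 were expressed and A2m, the plasma protease trap, was not. The chi-square test called 11 of 12 tested, against 62.2% of all genes, and 5, 5 and 1 of them were highest in clones 1, 2 and 3 (against 23.5%, 23.6% and 15.1% of all genes). Lrp1, a receptor that clears Mmp and Adamts proteins, had 68418, 44277 and 47314 counts in clones 1, 2 and 3. Furin, which removes the propeptide of Mmp14, Mmp11 and the Adamts proteases, had 7207, 6719 and 7618 counts, and it was the gene without a call. The widest ranges were those of the convertase Pcsk5, with 243, 228 and 133 counts, and of Plaur, the urokinase receptor, with 4870, 7339 and 6150.

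Of 14 Adam and Adamts-like relatives, 12 were expressed and 12 were called, against 62.2% of all genes tested. Of the 14, 2 were called highest in clone 1, 8 in clone 2 and 2 in clone 3, where 23.5%, 23.6% and 15.1% of all genes were. Adam9 and Adam19, both membrane-bound proteases, were the highest, with 11408, 15028 and 13090 counts and 10950, 10083 and 13001 counts in clones 1, 2 and 3. Adam8, a protease of leukocytes, had 952, 3584 and 995 counts and was the one relative past the edgeR goodness-of-fit test. It stood at 4.09 times the mean of the other clones in clone 2, again within the range of the macrophage markers. Adam33 had 169, 224 and 95 counts.

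Of 10 AP-1 and Ets genes, all were expressed and 8 were called, against 62.2% of all genes, with 4 highest in clone 1 and 4 in clone 2 (23.5% and 23.6% of all genes). Junb and Fosl2 were the highest, and the widest ranges were those of Fosb, with 2881, 651 and 1083 counts, and Fos, with 3432, 1141 and 1897 counts in clones 1, 2 and 3. The Fos and Jun genes of the list code for the proteins that bind the TGANTCA motif printed above for Mmp3, Mmp10, Mmp13 and Mmp1a. Among them, Fos, Fosb, Junb and Jund were called highest in clone 1, and Fosl1, Fosl2 and Jun in clone 2. Of the genes with the motif, Mmp12 and Mmp13 were called highest in clone 2, and Mmp3 and Mmp10 did not pass the chi-square test (adjusted p = 0.0652 and 0.160 over all genes tested).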

How the data were processed

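RNA-seq libraries of 3 clones of WT MEFs were analysed. Per the methods of the study, 86-nt single-end reads were aligned with TopHat2 2.0.0 on Bowtie 0.12.7, together with SAMtools 0.1.16, allowing 2 mismatches and up to 5 positions, and assigned to genes with HTSeq. The authors deposited a table of raw counts with 1 column for each clone, to which no normalization had been applied. The methods name mm10 and the submitters' processing notes mm9, and the table holds no coordinates. The HTSeq version, annotation and strand setting are not given in the sources used here. Reads of overlapping genes on opposite strands could therefore have been counted for either gene or left uncounted.

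Counts were converted to CPM after TMM scaling of the library sizes (edgeR 4.0.16, R 4.3.3). Genes with a mean of at least 10 counts were tested with a Pearson chi-square test and with the edgeR goodness-of-fit test against the trended dispersion, at a Benjamini-Hochberg adjusted p of 0.05 over all tested genes. Lengths and positions came from GENCODE M21 on GRCm38, where 99.7% of genes were matched by symbol or synonym, and promoters from RefSeq on GRCm38.p6. Stretches shared between genes were found by aligning every 86-base stretch of the members' transcripts to all transcripts with BWA 0.7.19. Both tests were run on simulated counts. These held counting error alone for the chi-square test and a constant dispersion for unchanged genes for the goodness-of-fit test. They therefore do not show how reliable the calls in these data are. Calculations used Python 3.11.15 with pandas 2.3.3 and scipy 1.17.1.

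Every member is named in the text, with the counts of each clone where its mean reaches 1 CPM. Pathway genes are given as counts of genes, with the 2 highest and the 2 called genes of widest range as examples, except 1 gene that is not reported here. Furin, Csf1r and A2m were named after their values were seen. The members, the gene lists and the alternatives were chosen with earlier results of these data known. DESeq2 1.42.0 size factors, total counts, other filters and lengths and leaving out each clone were the alternatives. The experiments of the study other than RNA-seq were not analysed here.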

Additional observations from a re-analysis of the deposited data

How the results depend on the processing

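The number of expressed members was 28 with DESeq2 size factors and with total counts, 28 to 29 when a clone was left out, 30 at 0.5 CPM and 36 at 1 count in every clone. The chi-square test called between 19 and 26 members under all alternatives, of 31 to 42 tested. The share of all genes called ranged from 32.1% without clone 1 to 63.4% with total counts, so these counts are not alike in background. The edgeR goodness-of-fit test called 3 members with DESeq2 size factors and with the stricter filter (2.13% and 2.05% of all genes). With total counts it called 2 members (2.07% of all genes). When a clone was left out it called 0 to 2 members and 0.143% to 1.61% of all genes, both lowest without clone 2. With a common dispersion the edgeR test called Mmp13 (adjusted p = 0.0093) and Mmp12 and Adamts10, but not Mmp2, and it called 3.1% of all genes. Per kb of all annotated exons in place of 1 transcript, the Timp to Mmp ratio was 2.02 instead of 1.34, the Mmp2 share of Mmp counts per kb 45.7% instead of 31.4%, and the Adamts1 share of Adamts counts per kb 33% instead of 27.3%. With counts not divided by length, the Timp2 share of Timp counts was 52.1% instead of 32.4% and the Adamts1 share 24.7%. In these cases the change follows from the length used. Mean CPM of the 29 members with a mean of at least 1 CPM moved by less than 1 SD with DESeq2 size factors and with total counts. Without clone 2, the mean of Mmp12 was 3.33 instead of 8.77 CPM and that of Mmp13 2.10 instead of 3.45 CPM. No paired analysis was possible because all 3 libraries belong to 1 group. With 1 library per clone, a clone, its culture and its library cannot be told apart, and members under 10 counts were too shallow to test.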
